A study of Rattus norvegicus with 31 samples.

Results

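Hormone ablation was compared with sham treatment in the irradiated rat testis, gene by gene over the whole array. The members of the comparison were chosen by their titles: 11 arrays that name hormonal ablation and 14 that name sham treatment, 25 of the 31 arrays in the series. All rats were LBNF1, 25 to 27 weeks old, and by titles and treatment protocol all had received 6 Gy to the lower abdomen, the sham rats included. Ablation joined a GnRH antagonist, which stops the pituitary from releasing gonadotropins, to flutamide, an antiandrogen, and so is aimed at both the production and the action of androgen. Each array held total testis RNA from what the labels call a biological replicate, and neither the length of treatment nor its timing after irradiation is given in the sources used here. The other 6 arrays, of rats given ablation with estradiol, entered only the estimate of the spread.

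The testis has seminiferous tubules, in which Sertoli cells carry the germ cells, and an interstitium of Leydig cells, macrophages and vessels between them. Luteinizing hormone acts on Leydig cells, which take up and make cholesterol and turn it into testosterone, while follicle-stimulating hormone and testosterone act on Sertoli cells. Spermatogonia divide and either renew themselves or differentiate towards meiosis. In irradiated rats of this kind surviving spermatogonia are known to stop short of differentiation, and suppression of gonadotropins and testosterone is known to let them differentiate again.

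Values were MAS5 signals on a log2 scale, and the 40th percentile of an array, between -1.92 and -1.75, is referred to as the filter level. The Sertoli markers Wt1 and Clu and the Leydig markers Cyp17a1, Cyp11a1, Insl3, Star and Lhcgr lay above it on all 25 arrays. Amh, a marker of immature Sertoli cells, lay above it on 1 sham array and on no ablation array, and no probe set was named here for Sox9 and Fshr. Of the markers of skeletal muscle, Acta1 and Myl11 lay below the level on all 25 arrays. The third, Ckm, lay above it on 12 of 14 sham and 9 of 11 ablation arrays. Spermatid transcripts were uneven: Prm1 and Tnp1 were both above the level on sham replicates 6, 7 and 8 and on ablation replicates 4, 5 and 9, and on no other of the 25. The 3-prime over 5-prime difference of the beta-actin control, a sign of RNA quality, ranged from 0.46 to 2.41 on sham and from 1.19 to 1.91 on ablation arrays, a mean difference of 0.13 (permutation test, 2-sided, p = 0.423). For GAPDH the mean difference was 0.18 (p = 0.0927 by the same permutation test).

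The titles of all 14 sham arrays say irradiated, but the descriptions call the testes of 10 arrays control and those of 4 irradiated. Set against each other with limma, these 10 and 4 arrays gave 0 of 21269 probe sets at an adjusted p under 0.05 (0%), and 513 (2.41%) at an unadjusted p under 0.05. Without sham replicate 13, 1 probe set was called. Whether the 10 rats described as control were irradiated is not settled by the labels. All 14 were used as 1 group, and the 10 (control-described) and the 4 (irradiated-described) are also set against ablation apart.

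More genes fell than rose with ablation, and the falls were larger. In limma over all genes 1460 of 11387 were called lower (12.8%) and 1051 higher (9.23%), where called means an adjusted p under 0.05 on the probe set of highest mean signal. Over probe sets 4128 of 21269 were called (19.4%). The median log2 change (ablation minus sham) was -0.50 among genes called lower, 0.39 among genes called higher and 0.0008 among all genes tested. All 11 ablation arrays lay below all 14 sham arrays in 227 genes (1.99%) and above them in 49 (0.43%). A change of at least 2-fold was reached by 219 genes called lower and 49 called higher. Many of these had one group near or below the filter level: with every value under that level raised to it, a measure named here the floored change, 156 fell and 19 rose at least 2-fold.

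**Figure D1:**
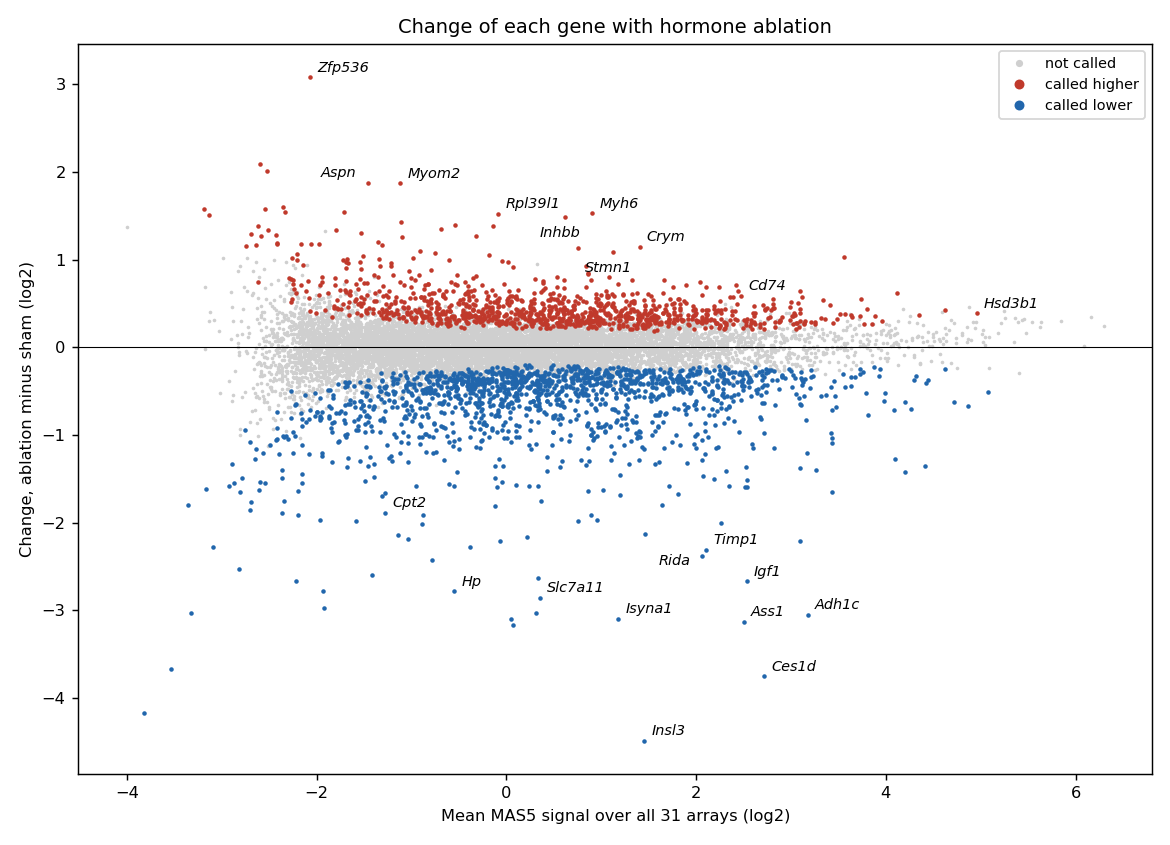
Change of each of 11387 genes (ablation minus sham, log2) against its mean signal over all 31 arrays (log2 MAS5), with called genes coloured and some named. Falls of more than 2 log2 units are seen at middle and high signals (Insl3, Ces1d, Adh1c, Igf1), while most rises of that size or near it (Zfp536, Aspn, Myom2) lie at low mean signals.

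Among the 15 genes with the lowest floored change were several outside the steroid pathway. Slc7a11, the cystine carrier that feeds glutathione synthesis, ran from 1.49 to 2.33 on the sham arrays (median 1.95) and -1.28 to -0.45 on the ablation arrays (median -0.93). The groups did not overlap, and the gene was 7.24-fold lower (log2 change -2.86 ± 0.11, SE, adjusted p = 1.34e-21). Rida, an enzyme that clears reactive imines, was 5.2-fold lower (log2 change -2.38 ± 0.09, SE, adjusted p = 5.39e-22), with signals of 3.09 to 3.59 on sham and 0.64 to 1.5 on ablation arrays. Hp, which encodes the hemoglobin binder haptoglobin, was 6.86-fold lower (log2 change -2.78 ± 0.25, SE, adjusted p = 7.86e-11). Cyp4f4, a cytochrome P450 that hydroxylates fatty acids and eicosanoids, was 5.38-fold lower (log2 change -2.43 ± 0.14, SE, adjusted p = 1.64e-16). Timp1, an inhibitor of matrix metalloproteinases, ran from 2.86 to 3.69 on the sham arrays (median 3.43) and 0.65 to 1.48 on the ablation arrays (median 1.05), and was 4.95-fold lower (log2 change -2.31 ± 0.10, SE, adjusted p = 2.27e-20). Defb24, a beta-defensin, had a log2 change of -3.03 ± 0.13, Nat8f5, of the N-acetyltransferase 8 family, -3.17 ± 0.15, and Isyna1, which makes inositol phosphate, -3.10 ± 0.10. In each of these 8 genes every ablation array lay below every sham array.

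The 15 genes with the highest floored change were a mixed set. Myh6, the alpha heavy chain of cardiac myosin, led with 0.12 to 0.87 on the sham arrays (median 0.51) and 1.61 to 3.02 on the ablation arrays (median 1.87). It was 2.88-fold higher (log2 change 1.53 ± 0.13, SE, adjusted p = 2.64e-11), with no overlap between the groups. Stc1, which encodes the secreted hormone stanniocalcin 1, was 2.61-fold higher (log2 change 1.39 ± 0.12, SE, adjusted p = 6.88e-12). Crym, a thyroid hormone-binding protein of the cytosol, was 2.22-fold higher (log2 change 1.15 ± 0.10, SE, adjusted p = 3.84e-11), and Ccn2, a secreted matricellular protein, 2.19-fold higher (log2 change 1.13 ± 0.10, SE, adjusted p = 9.17e-11). Stmn1, which destabilises microtubules and is abundant in dividing cells, was 2.12-fold higher (log2 change 1.09 ± 0.11, SE, adjusted p = 4.21e-10). Also in the set were Cyp2e1 (log2 change 1.27 ± 0.11), Endou (1.40 ± 0.13), Pitpnm3 (1.25 ± 0.11), Emilin3 (1.43 ± 0.19) and Egr4 (1.35 ± 0.16). Rpl39l1, a ribosomal protein paralog, rose by 1.52 ± 0.27, and 2 sham arrays reached the ablation range, the higher at 1.83 against a sham median of -1.27.

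**Figure D2:**
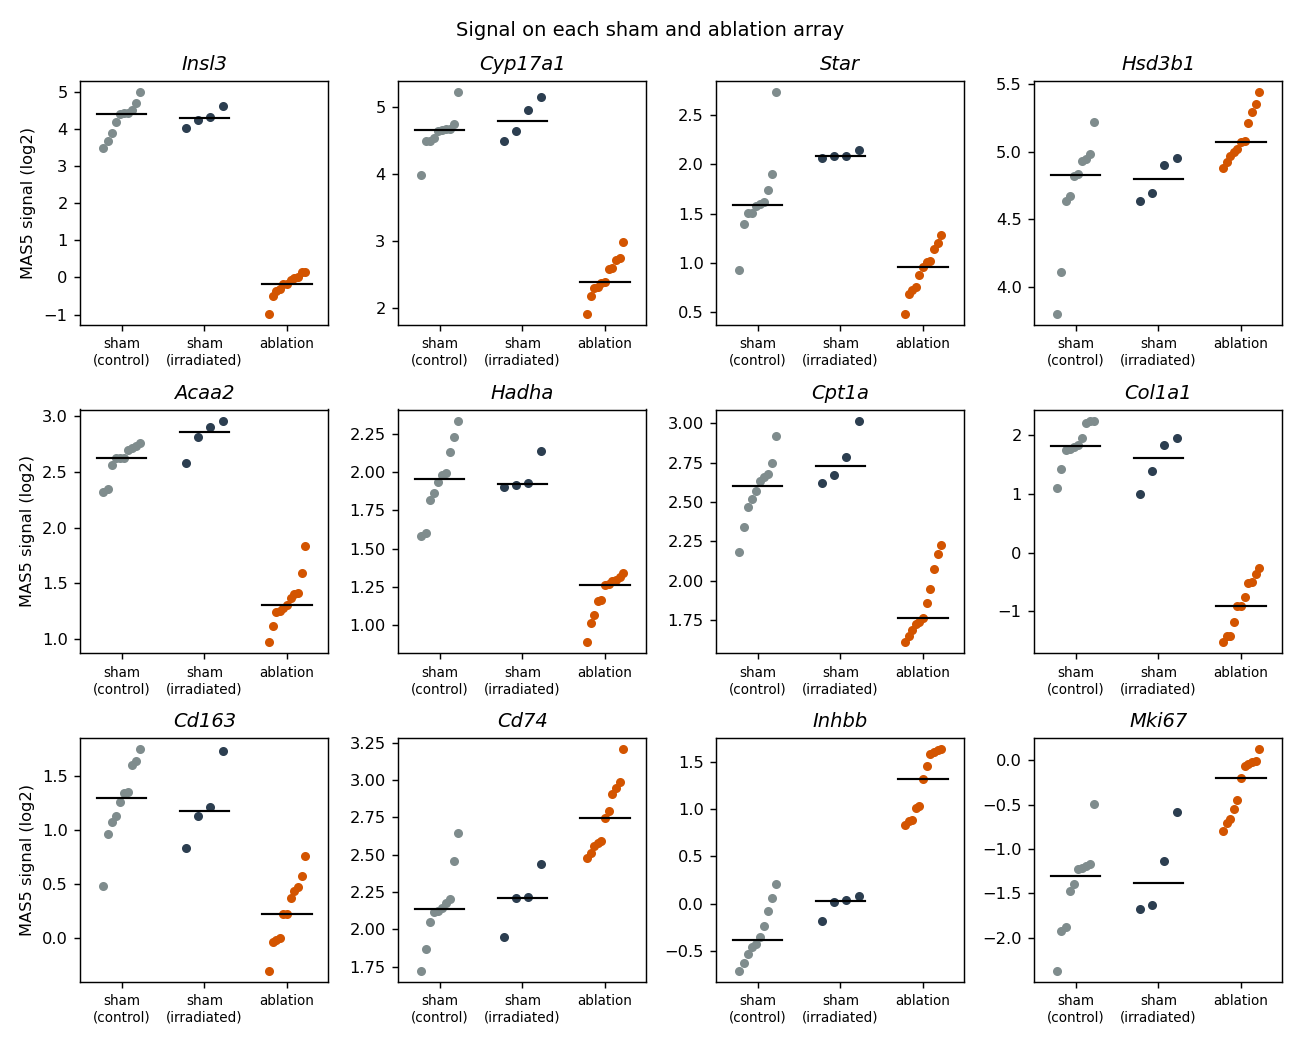
MAS5 signal (log2) of 12 genes on each of 10 sham arrays described as control, 4 sham arrays described as irradiated and 11 ablation arrays, with points for arrays and bars for medians. Insl3, Cyp17a1, Acaa2, Hadha, Col1a1 and Inhbb show no overlap between sham and ablation arrays, and Star, Hsd3b1, Cpt1a, Cd163, Cd74 and Mki67 overlap. Scales differ between panels.

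Most androgen synthesis genes fell, but Leydig cell genes did not move as a block. In bulk RNA fewer cells of a type and less RNA per cell cannot be told apart, here and in all that follows. In the androgen synthesis list 9 of 15 tested members were lower and 1 higher, with a median log2 change of -0.56. Counts in this and later lists stand beside 12.8% of all genes called lower and 9.23% called higher. Tspo, a protein of the outer mitochondrial membrane tied to cholesterol handling, ran from 2.60 to 3.25 on the sham arrays (median 3.08) and 1.21 to 1.69 on the ablation arrays (median 1.54). Its groups did not overlap, and it was 2.84-fold lower (log2 change -1.51 ± 0.08, SE, adjusted p = 1.89e-17). Scarb1, the receptor that takes up cholesterol ester from lipoprotein, was 3-fold lower (log2 change -1.58 ± 0.13, SE, adjusted p = 3.52e-12). Star, which moves cholesterol to the inner mitochondrial membrane, was 1.81-fold lower (log2 change -0.86 ± 0.14, SE, adjusted p = 1.95e-05); its ablation arrays reached 1.28 and overlapped the lowest sham arrays.

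The cytochromes P450 and the 17-beta-hydroxysteroid dehydrogenase of the pathway fell as well. Cyp11a1, which cuts the cholesterol side chain, and Cyp17a1, the 17-alpha-hydroxylase, had log2 changes of -1.91 ± 0.10 and -2.20 ± 0.11. Hsd17b3, which makes testosterone from androstenedione, had -1.31 ± 0.23. Por, which passes electrons to P450 enzymes, had -0.68 ± 0.15, and Fdx1, the mitochondrial electron carrier for Cyp11a1, -0.56 ± 0.10. The exception was Hsd3b1, a 3-beta-hydroxysteroid dehydrogenase of a family of near-identical genes, whose probe set could also read relatives. It ran from 3.80 to 5.22 on the sham arrays (median 4.83) and 4.88 to 5.44 on the ablation arrays (median 5.07), and was 1.31-fold higher (log2 change 0.39 ± 0.13, SE, adjusted p = 0.0364). The groups overlapped, the call was lost without any 1 of 8 single arrays (highest adjusted p 0.0671, without ablation replicate 2), and it was not called against either set of sham arrays alone (log2 change 0.32, adjusted p = 0.258, against the irradiated-described sham arrays, and 0.42, adjusted p = 0.0637, against the control-described ones). It was not called either without the filter, with arrays centred on their median, or without the arrays with spermatid transcripts. Hsd17b3, Por, Fdx1 and Hsd3b1 were named after their values were seen.

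Among receptors and regulators of Leydig cells, 6 of 18 tested members were lower and 5 higher, with a median log2 change of -0.20. The rises were not stable: 0 were higher and 7 lower against the irradiated-described sham arrays, 2 were higher with the mean over a gene's probe sets, and 3 without ablation replicate 11 or without the arrays with spermatid transcripts. Insl3, the insulin-like peptide of Leydig cells that is used as a marker of their function, was 22.4-fold lower. The receptors for growth hormone and prolactin fell: Ghr had -1.24 ± 0.16 and Prlr -0.89 ± 0.12. For Ghr the ablation arrays lay under the filter level, and its floored change was -0.48. Lhcgr, the receptor for luteinizing hormone, ran from 2.08 to 3.19 on the sham arrays (median 2.70) and 2.82 to 3.29 on the ablation arrays (median 3.00). It was 1.27-fold higher (log2 change 0.35 ± 0.11, SE, adjusted p = 0.0183), the groups overlapped, and against the irradiated-described sham arrays it was not called (adjusted p = 0.368). Nr5a1, the steroidogenic factor that binds the promoters of many steroid genes, was named after its values were seen; it changed by -0.27 ± 0.12 and was not called (adjusted p = 0.121). Cyp19a1, the aromatase that makes estradiol, changed by 0.22 ± 0.23 and was not called either (adjusted p = 0.562).

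Promoters of called members were searched for the nuclear receptor half-site AGGTCA on either strand, the core that Nr5a1 and many nuclear receptors bind. The sequences are from RefSeq (GRCr8), run from 250 bases before a start to 50 from it on, and are shown for Insl3 and Cyp11a1, which had the lowest changes among members of the androgen synthesis and Leydig signalling lists with a promoter entry, and for the fatty acid oxidation genes Acadvl and Hadhb, described below. Capitals mark the half-site, written TGACCT where it lies on the other strand. All promoters shown hold it, so they do not show how often it occurs. Acadvl and Hadhb are among the 4 of 14 oxidation members with a match, and neither had the lowest change of that list.
Insl3 (chr16:18432939-18433238, plus strand): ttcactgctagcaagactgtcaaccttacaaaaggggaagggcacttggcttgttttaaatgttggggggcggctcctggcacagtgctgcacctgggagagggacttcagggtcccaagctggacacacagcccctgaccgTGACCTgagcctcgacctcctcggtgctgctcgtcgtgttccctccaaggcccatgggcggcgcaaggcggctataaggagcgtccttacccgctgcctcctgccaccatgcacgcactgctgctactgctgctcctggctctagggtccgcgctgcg
Cyp11a1 (chr8:67318415-67318714, plus strand): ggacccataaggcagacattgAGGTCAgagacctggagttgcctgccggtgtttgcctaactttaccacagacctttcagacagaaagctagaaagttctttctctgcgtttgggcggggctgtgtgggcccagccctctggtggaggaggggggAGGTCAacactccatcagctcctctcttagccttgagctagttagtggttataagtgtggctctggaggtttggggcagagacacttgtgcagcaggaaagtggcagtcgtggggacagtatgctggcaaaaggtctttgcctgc
Acadvl (chr10:55236656-55236955, minus strand): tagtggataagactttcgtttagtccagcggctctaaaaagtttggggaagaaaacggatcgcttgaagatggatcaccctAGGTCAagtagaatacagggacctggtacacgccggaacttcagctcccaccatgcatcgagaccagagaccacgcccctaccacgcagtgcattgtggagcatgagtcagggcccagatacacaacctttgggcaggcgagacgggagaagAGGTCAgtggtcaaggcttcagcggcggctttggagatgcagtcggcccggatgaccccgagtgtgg
Hadhb (chr6:31907451-31907750, minus strand): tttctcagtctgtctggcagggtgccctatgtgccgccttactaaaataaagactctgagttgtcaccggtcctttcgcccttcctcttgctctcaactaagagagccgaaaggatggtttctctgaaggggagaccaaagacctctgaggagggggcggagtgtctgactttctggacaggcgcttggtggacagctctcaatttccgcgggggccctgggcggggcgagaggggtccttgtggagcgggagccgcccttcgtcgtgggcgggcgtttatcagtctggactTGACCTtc
With the base at the start counted as 0, the match began at -108 in Insl3, at -229 and -95 in Cyp11a1, at -169 and -17 in Acadvl and at 42 in Hadhb. The half-site was in 15.7% of 27457 promoters and in 12% of the 9458 of genes tested here. It was in 4 of the 6 called androgen synthesis members with a promoter entry (Cyp11a1, Fdx1, Hsd17b3 and Por), 3 of 10 of Leydig hormone signalling, 4 of 14 of fatty acid oxidation, 1 of 12 of cholesterol synthesis and 1 of 15 of the cell cycle. Longer motifs searched the same way in these 5 sets, the Nr5a1 site CAAGGTCA, which holds the half-site, the sterol response element TCACNCCAC and the direct repeat AGGTCANAGGTCA, which also holds it, matched none of them. They were in 1.48%, 1.13% and 0.0583% of all promoters, and in 0.867%, 1.07% and 0.0317% of those of genes tested here. The E2F site TTTCCCGC was in 1.03% of all promoters and in 2.06% of those of genes tested here. It matched only Mcm7, a helicase subunit of the cell cycle list named after its match was seen. A match describes these letters in these windows and shows no binding.

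Many detoxifying enzymes, some of them abundant in Leydig cells, fell. In the list of detoxification and esterases 13 of 23 tested members were lower and none was higher, with a median log2 change of -0.53, against 12.8% of all genes called lower. Hsd11b1, which converts glucocorticoids between active and inactive forms, ran from 2.55 to 3.73 on the sham arrays (median 3.43) and 0.87 to 1.69 on the ablation arrays (median 1.38), and was 4-fold lower (log2 change -2.0 ± 0.11, SE, adjusted p = 4.25e-17) with no overlap. Ephx1, the microsomal epoxide hydrolase, was 3-fold lower (log2 change -1.58 ± 0.12, SE, adjusted p = 3.41e-13). Adh1c, an alcohol dehydrogenase that also oxidises retinol, was 8.28-fold lower (log2 change -3.05 ± 0.10, SE, adjusted p = 3.9e-23), and the esterase Ces1d 13.5-fold lower. Several glutathione transferases did not pass the test: Gstm1, Gstm2, Gstm3, Gstp1 and Gstt1, named after their values were seen, were not called, at changes from -0.25 to -0.03.

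Many cholesterol genes fell. In the list of cholesterol synthesis and uptake 14 of 25 tested members were lower and none was higher, with a median log2 change of -0.31, against 12.8% of all genes called lower. Fewer, 10 and 11, were lower against the irradiated-described and the control-described sham arrays alone, and 10 with the replicate block. Acat2, which joins acetyl units at the first step, ran from 0.94 to 1.63 on the sham arrays (median 1.26) and -0.15 to 0.72 on the ablation arrays (median 0.21), and was 2.1-fold lower (log2 change -1.07 ± 0.09, SE, adjusted p = 1.41e-11). Cyp51, the lanosterol demethylase, was 1.86-fold lower (log2 change -0.89 ± 0.09, SE, adjusted p = 1.92e-09), and in both genes every ablation array lay below every sham array. Lss, the lanosterol synthase, had -0.65 ± 0.09 and Tm7sf2, a sterol reductase, -1.66 ± 0.22 (-1.39 floored). The regulators were not called: Srebf2, Scap and Insig2, named after their values were seen, changed by 0.04 ± 0.09, 0.21 ± 0.12 and 0.04 ± 0.11. Lcat, which esterifies cholesterol in lipoprotein and was also named after its values were seen, was 4.56-fold lower (log2 change -2.19 ± 0.12, SE, adjusted p = 1.64e-16).

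Desaturases of fatty acids fell, while the enzymes that start fatty acid synthesis were not called. In the list of fatty acid synthesis and desaturation 8 of 24 tested members were lower and 1 higher, with a median log2 change of -0.17 (5 lower without ablation replicate 4 or 6, and 5 against either set of sham arrays alone). Fads1, the delta-5 desaturase, ran from 3.12 to 4.19 on the sham arrays (median 3.56) and 1.64 to 2.35 on the ablation arrays (median 1.94). It was 3.02-fold lower (log2 change -1.60 ± 0.11, SE, adjusted p = 2.85e-14) without overlap, and Fads2, the delta-6 desaturase, was 2.31-fold lower (log2 change -1.21 ± 0.14, SE, adjusted p = 1.65e-08). Agpat2 and Gpam, which build glycerolipids, had -0.93 ± 0.11 and -1.27 ± 0.20. Fatty acid synthase Fasn and acetyl-CoA carboxylase Acaca, named after their values were seen, changed by -0.01 ± 0.08 and 0.06 ± 0.08 and were not called. Elovl2, an elongase of polyunsaturated fatty acids also named afterwards, was 1.31-fold higher (log2 change 0.39 ± 0.11, SE, adjusted p = 0.00702), but against the irradiated-described sham arrays it was not called (adjusted p = 0.561).

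Fatty acid oxidation, which burns fatty acids in mitochondria and peroxisomes, fell at most of its steps. In the list of fatty acid oxidation and peroxisomes 17 of 23 tested members were lower and none was higher, with a median log2 change of -0.65, against a median of 0.0008 over all genes. In 8 of these genes all ablation arrays lay below all sham arrays, against 1.99% of all genes. Under every alternative, single arrays left out included, 17 or 18 members were called lower and none higher. The genes of entry into the mitochondrion were all called lower. Cpt1a, the carnitine palmitoyltransferase of the outer membrane, ran from 2.19 to 3.02 on the sham arrays (median 2.65) and 1.61 to 2.23 on the ablation arrays (median 1.76), and was 1.71-fold lower (log2 change -0.77 ± 0.08, SE, adjusted p = 7.26e-09) with 1 ablation array above the lowest sham array. Slc25a20, the carrier across the inner membrane, was 1.86-fold lower (log2 change -0.90 ± 0.10, SE, adjusted p = 1.47e-08), without overlap. Cpt2, the palmitoyltransferase of the inner membrane, was 3.69-fold lower (log2 change -1.88 ± 0.32, SE, adjusted p = 3.9e-05), with a floored change of -1.18.

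Dehydrogenases for long and medium chains fell. Acadl, which acts on long chains, ran from 1.65 to 2.26 on the sham arrays (median 1.91) and 0.46 to 1.38 on the ablation arrays (median 0.92), without overlap, and was 2.02-fold lower (log2 change -1.01 ± 0.09, SE, adjusted p = 7.23e-11). Acadvl, which acts on very long chains, was 1.52-fold lower (log2 change -0.60 ± 0.07, SE, adjusted p = 6.32e-08), and Acadm, on medium chains, 1.43-fold lower (log2 change -0.51 ± 0.09, SE, adjusted p = 8.5e-05). The short-chain enzymes Acads (-0.22 ± 0.09) and Hadh (-0.29 ± 0.11) were not called. Acaa2, the thiolase that splits off acetyl units in the last step, ran from 2.32 to 2.96 on the sham arrays (median 2.66) and 0.97 to 1.83 on the ablation arrays (median 1.30). Its groups were far apart, and it was 2.49-fold lower (log2 change -1.32 ± 0.09, SE, adjusted p = 1.55e-14). Decr1, the dienoyl reductase needed for unsaturated fatty acids, was 2.17-fold lower (log2 change -1.12 ± 0.09, SE, adjusted p = 5.37e-12).

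Hadha and Hadhb, the subunits of the mitochondrial trifunctional protein, start 301 bases apart on opposite strands and fell alike. Hadha ran from 1.58 to 2.34 on the sham arrays (median 1.93) and 0.89 to 1.34 on the ablation arrays (median 1.26). Hadhb ran from 2.19 to 2.78 on the sham arrays (median 2.62) and 1.43 to 2.11 on the ablation arrays (median 1.79). Neither gene's groups overlapped, and the log2 changes were -0.77 ± 0.08 and -0.77 ± 0.08. Another probe set of Hadha changed by 0.00 and was not called. The electron acceptors of these enzymes fell too: Etfb had -1.27 ± 0.20 and Etfdh, which passes the electrons to ubiquinone, -0.95 ± 0.10. Catalase, which breaks down the peroxide made in peroxisomes, was 1.94-fold lower (log2 change -0.96 ± 0.17, SE, adjusted p = 6.23e-05), while the peroxisomal enzyme Hsd17b4 (-0.06 ± 0.07) was not called. Of the oxidation genes described, Acaa2, Decr1, Acadl, Etfdh and Cat were named by rule and the others after their values were seen.

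Genes that bring in or release fatty acids mostly fell, of which Cd36, G0s2 and Acsl4 were named after their values were seen. Cd36, a fatty acid translocase of the cell surface that macrophages also carry, ran from 1.99 to 3.19 on the sham arrays (median 2.64) and -0.23 to 1.16 on the ablation arrays (median 0.53), and was 4.38-fold lower (log2 change -2.13 ± 0.15, SE, adjusted p = 1.18e-13). G0s2, which inhibits the lipase of lipid droplets, was 4.47-fold lower (log2 change -2.16 ± 0.16, SE, adjusted p = 3.95e-13). In both every ablation array lay below every sham array. Pnpla2, that lipase, had -0.50 ± 0.10 and lipoprotein lipase Lpl -0.37 ± 0.10. Acsl4, which activates arachidonate and is known to respond to hormones in steroid-making cells, changed by -0.13 ± 0.12 and was not called (adjusted p = 0.477). Ppara, the nuclear receptor known to drive many oxidation genes, lay below the filter and was not tested.

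Other mitochondrial and redox lists had smaller median changes. In the antioxidant list 12 of 25 tested members were lower and none was higher, with a median log2 change of -0.24, but 6 were lower against the control-described sham arrays, 8 against the irradiated-described ones and 7 with the replicate block. Prdx3, the mitochondrial peroxiredoxin, ran from 1.90 to 2.80 on the sham arrays (median 2.34) and 0.85 to 1.65 on the ablation arrays (median 1.24), and was 2-fold lower (log2 change -1.0 ± 0.11, SE, adjusted p = 4.44e-09) with no overlap. Txn1, thioredoxin, had -0.72 ± 0.11 and Gpx1, a glutathione peroxidase, -0.55 ± 0.11. In oxidative phosphorylation 12 of 26 tested members were lower and none was higher, with a median log2 change of -0.26. Ndufa1, a complex I subunit, was 1.57-fold lower (log2 change -0.65 ± 0.08, SE, adjusted p = 4.08e-08). Cox5b of complex IV had -0.39 ± 0.09. The oxidative phosphorylation count varied both ways: 4 were called lower against the control-described sham arrays alone, and 5 with the replicate block. After quantile normalization 17 were lower, and 18 with the mean over a gene's probe sets.

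Single steps stood out in the remaining metabolism lists, where 12.8% of all genes were called lower and 9.23% higher. In glycolysis and lactate 7 of 22 tested members were lower and none was higher, with a median log2 change of -0.17. Aldoc, an aldolase isoform, ran from 0.86 to 1.85 on the sham arrays (median 1.53) and -1.52 to 0.08 on the ablation arrays (median -0.67), and was 4.61-fold lower (log2 change -2.21 ± 0.22, SE, adjusted p = 1.07e-09). The groups did not overlap, and Tpi1 (-0.88 ± 0.11), Hk1 (-0.84 ± 0.15) and Pgk1 (-0.67 ± 0.09) also fell. In arginine, polyamine and creatine 4 of 20 tested members were lower and 1 higher, with a median log2 change of -0.02. Ass1, which makes argininosuccinate, was 8.76-fold lower (log2 change -3.13 ± 0.10, SE, adjusted p = 3.9e-23), and Odc1, which starts polyamine synthesis, 2.77-fold lower (log2 change -1.47 ± 0.11, SE, adjusted p = 6.37e-13). Gatm, which starts creatine synthesis and was named after its values were seen, was 1.21-fold higher (log2 change 0.27 ± 0.08, SE, adjusted p = 0.0184), and was not called against the irradiated-described sham arrays (adjusted p = 0.607). In iron and heme handling 9 of 17 tested members were lower and 1 higher, with a median log2 change of -0.27. Lcn2, which binds iron carriers, was 2.44-fold lower (log2 change -1.29 ± 0.09, SE, adjusted p = 6.58e-14), and Cp, ceruloplasmin, 1.6-fold lower (log2 change -0.68 ± 0.09, SE, adjusted p = 2.9e-07). Slc40a1, the iron exporter ferroportin, also named afterwards, rose by 0.58 ± 0.08.

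Most tested collagens and a good part of the other matrix genes fell, with a few rises. In the collagen list 12 of 18 tested members were lower and none was higher, with a median log2 change of -0.48, against 12.8% of all genes called lower. In 7 of these genes all ablation arrays lay below all sham arrays, against 1.99% of all genes. Col1a1, of fibrillar type I collagen, ran from 0.99 to 2.24 on the sham arrays (median 1.81) and -1.52 to -0.27 on the ablation arrays (median -0.90). It was 6.18-fold lower (log2 change -2.63 ± 0.15, SE, adjusted p = 4.76e-16), with no overlap. Col3a1 was 2.98-fold lower (log2 change -1.58 ± 0.08, SE, adjusted p = 1.94e-18), and Col6a1, of the beaded filaments around cells, 2.2-fold lower (log2 change -1.14 ± 0.09, SE, adjusted p = 7.2e-13). Basement membrane collagens fell as well: Col4a1 had -0.97 ± 0.10 and Col4a2 -0.31 ± 0.09, both named after their values were seen.

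Among proteoglycans and glycoproteins 15 of 34 tested members were lower and 2 higher, with a median log2 change of -0.32. Spp1, osteopontin, was 2.96-fold lower (log2 change -1.57 ± 0.11, SE, adjusted p = 1.16e-13) and Ogn, a small leucine-rich proteoglycan, 2.67-fold lower (log2 change -1.42 ± 0.10, SE, adjusted p = 1.05e-13). Aspn, of the same family, moved the other way. It ran from -3.80 to -2.13 on the sham arrays (median -2.37) and -1.10 to 0.37 on the ablation arrays (median -0.91), without overlap, and its change of 1.88 ± 0.18 was 1.17 when floored. All its sham values lay below the filter level. Aspn thus passed the filter through treated arrays alone, so its rise and lack of overlap are no independent support. Dcn, the best-known member of that family and named after its values were seen, changed by 0.06 ± 0.08 and was not called. Among matrix proteases, inhibitors and crosslinking enzymes 12 of 29 tested members were lower and 4 higher, with a median log2 change of -0.25. Pcolce, which speeds the trimming of procollagen, was 3.47-fold lower (log2 change -1.80 ± 0.11, SE, adjusted p = 5.05e-16), and Serpinf1, an antiangiogenic serpin, 2.19-fold lower (log2 change -1.13 ± 0.10, SE, adjusted p = 6.08e-11). Against these, P4ha2, a prolyl hydroxylase of collagen, was 1.63-fold higher (log2 change 0.71 ± 0.07, SE, adjusted p = 7.14e-10), and Plau, the urokinase, 1.55-fold higher (log2 change 0.63 ± 0.08, SE, adjusted p = 2.61e-07), both without overlap. Plau was named after its values were seen.

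Contractile genes of myoid and smooth muscle cells fell in part. For this list and the endothelial one, 12.8% of all genes were called lower and 9.23% higher. In the peritubular myoid and smooth muscle list 10 of 21 tested members were lower and none was higher, with a median log2 change of -0.35. Tagln, an actin binder of smooth muscle, was 2.11-fold lower (log2 change -1.07 ± 0.15, SE, adjusted p = 1.08e-06). Actg2, smooth muscle gamma-actin, ran from -1.15 to -0.31 on the sham arrays (median -0.53) and -1.74 to -1.08 on the ablation arrays (median -1.39), with a narrow overlap, and Tpm2 and Mylk had -0.83 ± 0.12 and -0.65 ± 0.10. Acta2, smooth muscle alpha-actin and the usual myoid marker, changed by -0.41 ± 0.19 and was not called; it was named after its values were seen. In the endothelial list 4 of 20 tested members were lower and 1 higher, with a median log2 change of -0.23; 1 was lower against the irradiated-described sham arrays and 2 against the control-described ones. Kdr, the main receptor for vascular endothelial growth factor, had -0.55 ± 0.15, and Angpt2, which loosens vessels, rose by 0.38 ± 0.09. Angpt2 was not called against the irradiated-described sham arrays (adjusted p = 0.146).

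Immune genes went different ways by group. In the macrophage and myeloid list 10 of 20 tested members were lower and none was higher, with a median log2 change of -0.28, against 12.8% of all genes; 6 were lower against the control-described sham arrays alone, and as many with the replicate block. Cd163, the haptoglobin receptor of resident macrophages, ran from 0.48 to 1.75 on the sham arrays (median 1.23) and -0.30 to 0.76 on the ablation arrays (median 0.22). The groups overlapped, and it was 2-fold lower (log2 change -1.0 ± 0.13, SE, adjusted p = 1.5e-07). Mrc1, the mannose receptor, had -0.69 ± 0.09 and Lgals3, galectin 3, -0.68 ± 0.08, both without overlap. Among complement genes 8 of 10 tested members were lower and none was higher, with a median log2 change of -0.38, against 12.8% of all genes. The chains of C1q, which macrophages make, had -0.81 ± 0.13 (C1qa), -0.95 ± 0.14 (C1qb) and -0.86 ± 0.11 (C1qc).

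Genes of class II antigen presentation went both ways. In that list 4 of 11 tested members were higher and 2 lower, with a median log2 change of 0.04; 1 was higher and 2 lower against the irradiated-described sham arrays. Cd74, the invariant chain of class II molecules, ran from 1.72 to 2.65 on the sham arrays (median 2.16) and 2.48 to 3.21 on the ablation arrays (median 2.75). Only the highest sham array reached the ablation range, and it was 1.5-fold higher (log2 change 0.59 ± 0.10, SE, adjusted p = 3.75e-05). RT1-Da, a class II alpha chain, was 1.35-fold higher (log2 change 0.43 ± 0.10, SE, adjusted p = 0.00284), not called against the irradiated-described sham arrays (adjusted p = 0.192). The members that fell were proteases and reductases of the same route: Ctss had -0.60 ± 0.10 and Ifi30 -0.78 ± 0.08. Ciita, which switches on class II genes and was named after its values were seen, changed by 0.04 ± 0.13 and was not called.

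Chemokine and interferon genes fell in part. In that list 9 of 32 tested members were lower and 2 higher, with a median log2 change of -0.17. The shares of all genes were 12.8% lower and 9.23% higher. Against the irradiated-described sham arrays 6 members were lower. Cxcl12, which attracts cells with the receptor Cxcr4, ran from 2.99 to 3.74 on the sham arrays (median 3.49) and 1.82 to 2.77 on the ablation arrays (median 2.30), and was 2.21-fold lower (log2 change -1.14 ± 0.09, SE, adjusted p = 2.25e-12) without overlap. Cxcl14 was 2.69-fold lower (log2 change -1.43 ± 0.11, SE, adjusted p = 8.38e-13), Psmb8, an immunoproteasome subunit, had -0.76 ± 0.09, and Ccl11, the eosinophil chemokine, -0.58 ± 0.09. Cxcl13, the B cell chemokine, rose by 0.64 ± 0.17 and was named after its values were seen; against the irradiated-described sham arrays it was not called (adjusted p = 0.163). Among lymphocyte and mast cell genes 1 of 14 tested members was lower, Cd4 at -0.60 ± 0.15, and none was higher (median -0.03). Rat macrophages also carry Cd4.

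Sertoli identity genes went both ways. In that list 4 of 17 tested members were higher and 2 lower, with a median log2 change of 0.22, against 9.23% of all genes called higher. Against the irradiated-described sham arrays 2 were higher and 2 lower, and after quantile normalization 7 were higher. Espn, an actin bundler of Sertoli cell junctions, ran from 2.31 to 3.37 on the sham arrays (median 2.73) and 2.77 to 4.14 on the ablation arrays (median 3.45), and was 1.56-fold higher (log2 change 0.65 ± 0.14, SE, adjusted p = 0.000918). Cst9l, a cystatin-like protein, had 0.48 ± 0.10 and Dhh, the hedgehog ligand of Sertoli cells, 0.35 ± 0.10, which was not called against the irradiated-described sham arrays (adjusted p = 0.269). Clu, clusterin, changed by 0.30 ± 0.16 and was not called (adjusted p = 0.209). Tst, a sulfur transferase, was the member that fell furthest, 1.82-fold. Among junction genes 3 of 23 tested members were higher and 1 lower, with a median log2 change of 0.08 (1 higher against the irradiated-described sham arrays, 5 after quantile normalization). Ocln, occludin of tight junctions, was 1.4-fold higher (log2 change 0.49 ± 0.10, SE, adjusted p = 0.000414), while Gja1, connexin 43, which Leydig cells also carry, was 2.13-fold lower (log2 change -1.09 ± 0.12, SE, adjusted p = 1.39e-08).

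Among androgen-responsive Sertoli genes 5 of 16 tested members were lower and none was higher, with a median log2 change of -0.18. Eppin, a protease inhibitor, ran from -1.47 to -0.20 on the sham arrays (median -0.60) and -2.76 to -1.53 on the ablation arrays (median -2.27), and its change of -1.52 ± 0.15 was -1.13 when floored. Tubb3, a tubulin of Sertoli cells and neurons, was 3.08-fold lower (log2 change -1.62 ± 0.11, SE, adjusted p = 1.8e-14) by 1 probe set, while another changed by 0.14 and was not called. Rhox5, the best-known androgen target of Sertoli cells, lay below the filter and was not tested. In the inhibin and activin list 5 of 17 tested members were higher and 1 lower, with a median log2 change of 0.12 (3 higher against the irradiated-described sham arrays, and as many with the mean over a gene's probe sets). Inhbb, the beta B subunit, ran from -0.71 to 0.20 on the sham arrays (median -0.21) and 0.83 to 1.64 on the ablation arrays (median 1.32), without overlap, and was 2.81-fold higher (log2 change 1.49 ± 0.12, SE, adjusted p = 1.35e-12). Inha, the alpha subunit shared by both inhibins, was 1.33-fold higher (log2 change 0.41 ± 0.10, SE, adjusted p = 0.00261). Smad3, a transducer of activin, had 0.45 ± 0.08 and the receptor Acvr2b 0.97 ± 0.19 (0.56 floored). Fstl3, which traps activin, fell by 0.53 ± 0.12.

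Several spermatogonial genes rose, most of them at signals near the filter level. In the undifferentiated list 6 of 17 tested members were higher and none was lower, with a median log2 change of 0.09, against 9.23% of all genes called higher. Epcam, a surface protein of spermatogonia, ran from -2.60 to -1.19 on the sham arrays (median -1.85) and -1.23 to -0.47 on the ablation arrays (median -0.97). Only the highest sham array reached the lowest ablation arrays, and it was 2.02-fold higher (log2 change 1.01 ± 0.14, SE, adjusted p = 4.42e-07), with a floored change of 0.88. Sox3, a transcription factor of undifferentiated spermatogonia, was 1.77-fold higher (log2 change 0.83 ± 0.12, SE, adjusted p = 4.32e-06), without overlap. The receptor pair for Gdnf moved unequally: Gfra1 had 0.40 ± 0.09, and Ret 1.18 ± 0.18, with a floored change of 0.26. Sall4, a stem cell factor taken from the marker list, lay above the level on 0 of 14 sham and 8 of 11 ablation arrays. It thus passed the filter through treated arrays alone, so its rise is no independent support. Id4, Etv5 and Bcl6b, further genes of the stem cell pool named after their values were seen, changed by -0.12 ± 0.12, 0.27 ± 0.11 and -0.05 ± 0.16 and were not called.

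In the differentiating list 4 of 7 tested members were higher and 1 lower, with a median log2 change of 0.63, against 9.23% of all genes called higher. This count was 2 with values raised to the filter level, 2 against the irradiated-described sham arrays and 0 with a 60th percentile filter. Kit, the receptor of differentiating spermatogonia that Leydig cells also carry, moved the other way and ran from -1.90 to 0.72 on the sham arrays (median -0.63) and -1.87 to -1.09 on the ablation arrays (median -1.37). Its change was -0.76 ± 0.26 (adjusted p = 0.0387), and the call was lost without any 1 of 11 single arrays (highest adjusted p 0.0696, without sham replicate 5). It was lost against either set of sham arrays alone too (adjusted p = 0.0602 irradiated-described, 0.104 control-described). Dnmt3a, a DNA methyltransferase, rose by 0.51 ± 0.14. Among genes of germ line RNA and genome defence 8 of 12 tested members were higher and none was lower, with a median log2 change of 0.64. Tex14, of the bridges between germ cells, ran from -1.99 to -1.10 on the sham arrays (median -1.48) and -1.01 to -0.33 on the ablation arrays (median -0.66), without overlap, and was 1.83-fold higher (log2 change 0.87 ± 0.11, SE, adjusted p = 1.24e-07). Tex15, needed to silence transposons, was 1.98-fold higher (log2 change 0.98 ± 0.12, SE, adjusted p = 6.58e-08), and Tdrd1, a partner of piwi proteins, 1.65-fold higher (log2 change 0.72 ± 0.13, SE, adjusted p = 7.92e-05). In that list 6 members were called higher with values raised to the filter level, 5 against the irradiated-described sham arrays and 4 with a 60th percentile filter.

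Of the genes of later germ cells few were called. Among meiotic genes 2 of 8 tested members were higher and none was lower, with a median log2 change of 0.31; 0 were higher with the replicate block and 1 with values raised to the filter level. Sycp3, of the synaptonemal complex, ran from -2.93 to 1.2 on the sham arrays (median -2.49) and -1.90 to -0.62 on the ablation arrays (median -1.05) and lay above the filter level on 3 of 14 sham and 11 of 11 ablation arrays. The sham array at 1.2 was replicate 6, one of those with spermatid transcripts, and the change was 0.97 ± 0.29 (adjusted p = 0.0146). The call was lost with values raised to the filter level (adjusted p = 0.211), with the replicate block (0.0869) and against the control-described sham arrays (0.0956). Ldhc, a lactate dehydrogenase of spermatocytes, changed by 0.47 ± 0.34 and was not called; it was named after its values were seen. Among spermatid genes 1 of 13 tested members was lower, Crem at -0.43 ± 0.13, and none was higher, with a median of 0.05. Prm1, protamine 1, ran from -6.11 to 5.78 on the sham arrays (median -2.56) and -5.14 to 4.18 on the ablation arrays (median -0.38), and Tnp1, a transition protein, from -7.48 to 3.56 on the sham arrays (median -5.77) and -5.89 to 1.14 on the ablation arrays (median -2.94). Both spreads exceeded any difference between the groups (adjusted p = 0.418 and 0.41).

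**Figure D3:**
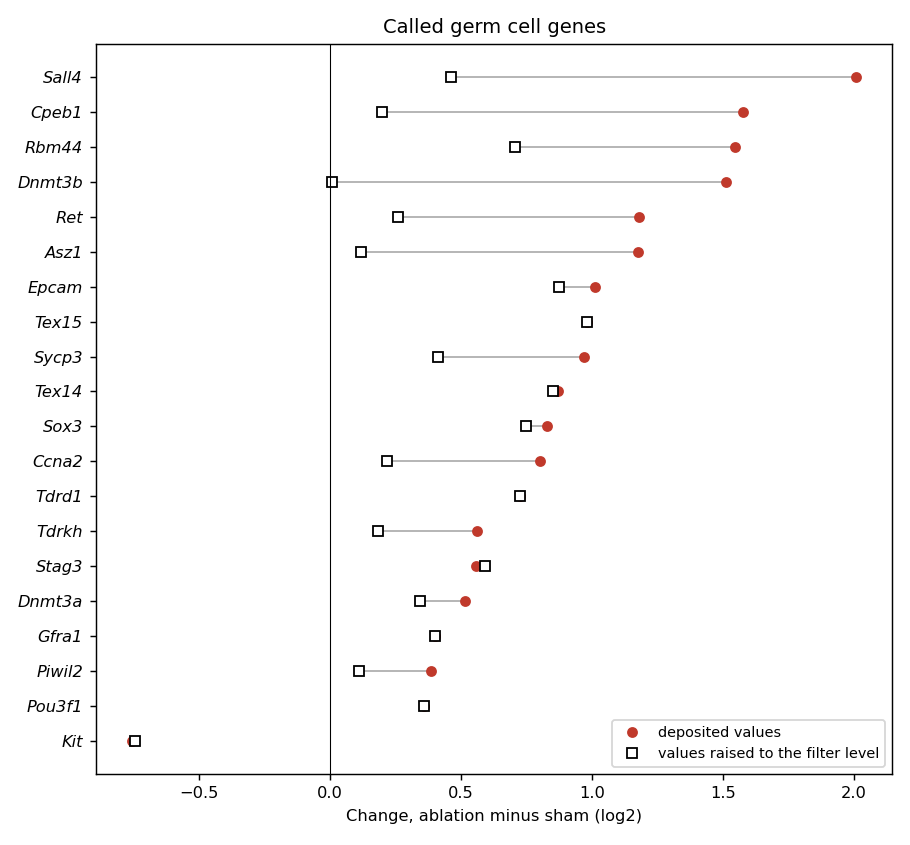
Log2 change (ablation minus sham) of the 20 called genes of the undifferentiated, differentiating, germ line RNA and meiotic lists, with the deposited values (filled) and with values raised to the filter level (open). Sall4, Cpeb1, Dnmt3b, Ret and Asz1 lose most of their change under the second measure, whereas Epcam, Tex15, Tex14, Sox3, Tdrd1 and Gfra1 keep nearly all of it.

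Proliferation genes rose in part. In the cell cycle and mitosis list 18 of 42 tested members were higher and 2 lower, with a median log2 change of 0.27, against 9.23% of all genes called higher. Mki67, made by dividing cells of any type, ran from -2.37 to -0.50 on the sham arrays (median -1.31) and -0.79 to 0.12 on the ablation arrays (median -0.20). Only 2 sham arrays lay above the lowest ablation array, and it was 2.11-fold higher (log2 change 1.08 ± 0.16, SE, adjusted p = 2.05e-06). Ccnb1, cyclin B1, had 0.54 ± 0.09 and Cenpf, of the kinetochore, 0.79 ± 0.12. The members that fell were D-type cyclins, Ccnd1 (-0.45 ± 0.11) and Ccnd3 (-0.51 ± 0.11), both named after their values were seen. Cdkn1c, a cyclin-dependent kinase inhibitor named in the same way, was 1.77-fold higher (log2 change 0.82 ± 0.09, SE, adjusted p = 2e-09), without overlap. Against the 4 sham arrays described as irradiated 8 members of the list were higher, against the control-described ones 15.

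The stress lists differed in their called shares, where 12.8% of all genes were called lower and 9.23% higher. Among p53 targets and DNA damage genes 1 of 20 tested members was higher and 2 were lower, with a median log2 change of -0.02. Xpc, which recognises damaged DNA, ran from 1.22 to 2.0 on the sham arrays (median 1.74) and 0.53 to 1.21 on the ablation arrays (median 0.93), without overlap, and was 1.83-fold lower (log2 change -0.87 ± 0.09, SE, adjusted p = 9.4e-10). Ccng1, cyclin G1, had -0.40 ± 0.09 and Mdm2, the ligase that degrades p53, 0.27 ± 0.07, though other probe sets of Mdm2 ran to -0.81. Cdkn1a, the best-known p53 target and named after its values were seen, changed by -0.07 ± 0.08 and was not called. Among immediate early genes 3 of 22 tested members were higher and 1 lower, with a median log2 change of 0.09 (1 higher against the irradiated-described sham arrays, without the arrays with spermatid transcripts, or with a 60th percentile filter). Ccn1 had 0.64 ± 0.18, Nr4a3 0.49 ± 0.15 and Myc -0.80 ± 0.12. For Ccn1 the sham arrays ran from -2.48 to -1.65 and the ablation arrays from -2.40 to -0.42. Both groups thus held values under the filter level, which limits the size of that change. Fos, also named afterwards, changed by 0.95 ± 0.45 and was not called. In the heat shock and unfolded protein list 8 of 29 tested members were lower and 1 higher, with a median log2 change of -0.08. That share called lower was above the 12.8% of all genes. Asns, asparagine synthetase, had -0.69 ± 0.09 and Dnajc3, of the endoplasmic reticulum, -0.50 ± 0.10, while Ddit3, a transcription factor of stress, rose by 0.53 ± 0.10.

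Of the growth factor lists that of the insulin-like growth factors had the lowest median. There 7 of 17 tested members were lower and 3 higher, with a median log2 change of -0.28; 0 were higher against the irradiated-described sham arrays. Igf1, a growth factor that Leydig, Sertoli and peritubular cells make, ran from 3.53 to 4.45 on the sham arrays (median 3.90) and 0.90 to 1.86 on the ablation arrays (median 1.24). It was 6.36-fold lower (log2 change -2.67 ± 0.10, SE, adjusted p = 4.37e-21), without overlap. The binding proteins split: Igfbp2 was 2.6-fold lower (log2 change -1.38 ± 0.08, SE, adjusted p = 1.19e-15) and Igfbp5 2.23-fold lower (log2 change -1.15 ± 0.09, SE, adjusted p = 3.08e-12), whereas Igfbp3, named after its values were seen, rose by 0.32 ± 0.10 and was not called against the irradiated-described sham arrays (adjusted p = 0.254). Among niche factors for spermatogonia 2 of 17 tested members were higher and 2 lower, with a median log2 change of 0.10. Both shares were near those of all genes, 9.23% higher and 12.8% lower. Kitlg, the ligand of Kit, ran from 1.68 to 2.18 on the sham arrays (median 1.98) and 2.15 to 2.63 on the ablation arrays (median 2.46), and was 1.38-fold higher (log2 change 0.47 ± 0.08, SE, adjusted p = 4.98e-05), though other probe sets of it reached down to -0.01. Gdnf itself lay below the filter and was not tested.

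The growth factor pathways are given beside the shares of all genes, 12.8% called lower and 9.23% higher. In transforming growth factor beta 4 of 14 tested members were lower and 2 higher, with a median log2 change of -0.02 (2 lower against the irradiated-described sham arrays). Ltbp3, which holds the factor in the matrix, was 1.82-fold lower (log2 change -0.86 ± 0.07, SE, adjusted p = 1.22e-11). In bone morphogenetic proteins and Id genes 3 of 19 tested members were higher and 1 lower, with a median log2 change of 0.10 (1 higher against the irradiated-described sham arrays). Bmp6 was 1.93-fold lower (log2 change -0.95 ± 0.08, SE, adjusted p = 1.08e-11) by the probe set used, while its 3 probe sets ranged from -1.46 to 0.82, and Bmp7 rose by 0.53 ± 0.11. In fibroblast growth factors 3 of 12 tested members were higher and none was lower, with a median log2 change of 0.15 (1 higher against the irradiated-described sham arrays), with Fgfr3 at 0.41 ± 0.09 and Spry1, a feedback inhibitor, at 0.34 ± 0.10. In platelet-derived and vascular growth factors 3 of 12 tested members were lower and none was higher, with a median log2 change of -0.17. Pdgfra, a receptor of Leydig progenitors and stroma, had -0.55 ± 0.10, and its ligand Pdgfa, named after its values were seen, 0.25 ± 0.10, not called. In the Wnt pathway 3 of 33 tested members were lower and 2 higher, with a median log2 change of 0.03 (0 lower against the irradiated-described sham arrays). Both shares lay under those of all genes. Fzd2, a receptor, was at -0.46 ± 0.10 and Sfrp1, a Wnt binder, at -0.23 ± 0.07. In the Notch pathway 1 of 19 was lower and none higher (median -0.03). In the hedgehog pathway 1 of 8 was higher, Dhh, and none lower (median -0.08).

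Hormone receptors and lipid mediators moved singly. The shares of all genes were 12.8% called lower and 9.23% higher. Among nuclear receptors 4 of 25 tested members were higher and 2 lower, with a median log2 change of 0.02 (1 higher against the irradiated-described sham arrays). Nr1d1, a repressor of the circadian clock, ran from -0.02 to 1.03 on the sham arrays (median 0.56) and 0.68 to 1.42 on the ablation arrays (median 1.22), and was 1.52-fold higher (log2 change 0.61 ± 0.10, SE, adjusted p = 2.15e-05). Thrb, a thyroid hormone receptor, rose by 0.40 ± 0.08, and Ppard, a receptor for fatty acids, had -0.40 ± 0.09; neither was called against the irradiated-described sham arrays (adjusted p = 0.0752 and 0.165). Among clock genes 4 of 16 tested members were higher and 1 lower, with a median log2 change of 0.21 (1 higher against the irradiated-described sham arrays). Npas2, a partner of Bmal1, ran from 0.48 to 1.22 on the sham arrays (median 1.01) and -0.06 to 0.38 on the ablation arrays (median 0.15), without overlap, and was 1.72-fold lower (log2 change -0.79 ± 0.09, SE, adjusted p = 1.77e-08). Cry1 rose by 0.39 ± 0.11 and Nr1d2 by 0.43 ± 0.11, and neither was called against the irradiated-described sham arrays (adjusted p = 0.547 and 0.209). The time of day of sampling is not given in the sources used here.

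In retinoid metabolism 6 of 14 tested members were lower and 1 higher, with a median log2 change of -0.26. Dhrs4, a retinal reductase, was 2.08-fold lower (log2 change -1.06 ± 0.09, SE, adjusted p = 4.49e-11), and Crabp2, a carrier of retinoic acid, 1.75-fold lower (log2 change -0.81 ± 0.11, SE, adjusted p = 1.15e-06). Among prostaglandin genes 4 of 14 tested members were lower and 1 higher, with a median log2 change of -0.13. Ptgis, the prostacyclin synthase, had -1.08 ± 0.22 and Ptgds, a prostaglandin D synthase, -1.21 ± 0.21 (-0.66 floored). In thyroid hormone and inositol genes 3 of 9 tested members were higher and 1 lower, with a median log2 change of 0.14 (1 higher against the irradiated-described sham arrays). Slc5a3, the inositol carrier, rose by 0.45 ± 0.12 while the synthase Isyna1 fell 8.56-fold. Dio3, which inactivates thyroid hormone and was named after its values were seen, changed by 0.36 ± 0.16 and was not called.

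Reference genes and genes of other tissues were checked in the same fit, in which 12.8% of all genes were called lower and 9.23% higher. Of 16 ribosomal protein genes, none was called by limma in either direction, with 3 higher and 1 lower at an unadjusted p under 0.05 and a median change of 0.11. After quantile normalization 3 were called higher. Of 3 red cell genes none was called, nor did any reach an unadjusted p under 0.05 (median -0.07). In the epididymis and duct list 1 of 6 was lower, Aqp9, a water and glycerol channel that Leydig cells also carry, at -1.25 ± 0.10, and 1 higher, Krt19 at 0.43 ± 0.11 (median -0.13). Among striated muscle genes 3 of 15 tested members were higher and 2 lower, with a median log2 change of 0.06. These included Myh6 and Myom2, while Ckm, the muscle creatine kinase named after its values were seen, changed by -0.08 ± 0.15 and was not called. In adipocyte genes 3 of 9 tested members were lower and 1 higher, with a median log2 change of 0.05, and the defining markers Adipoq and Plin1 were not called (0.11 ± 0.18 and 0.30 ± 0.30). In nerve and glia 4 of 9 tested members were lower and 1 higher, with a median log2 change of -0.24, with S100b, a glial protein that Leydig cells also carry, at -0.50 ± 0.08, and Stmn2, of growing neurites, rising by 0.70 ± 0.11. Whether other tissue in the samples had a part in these changes was not tested.

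**Figure D4:**
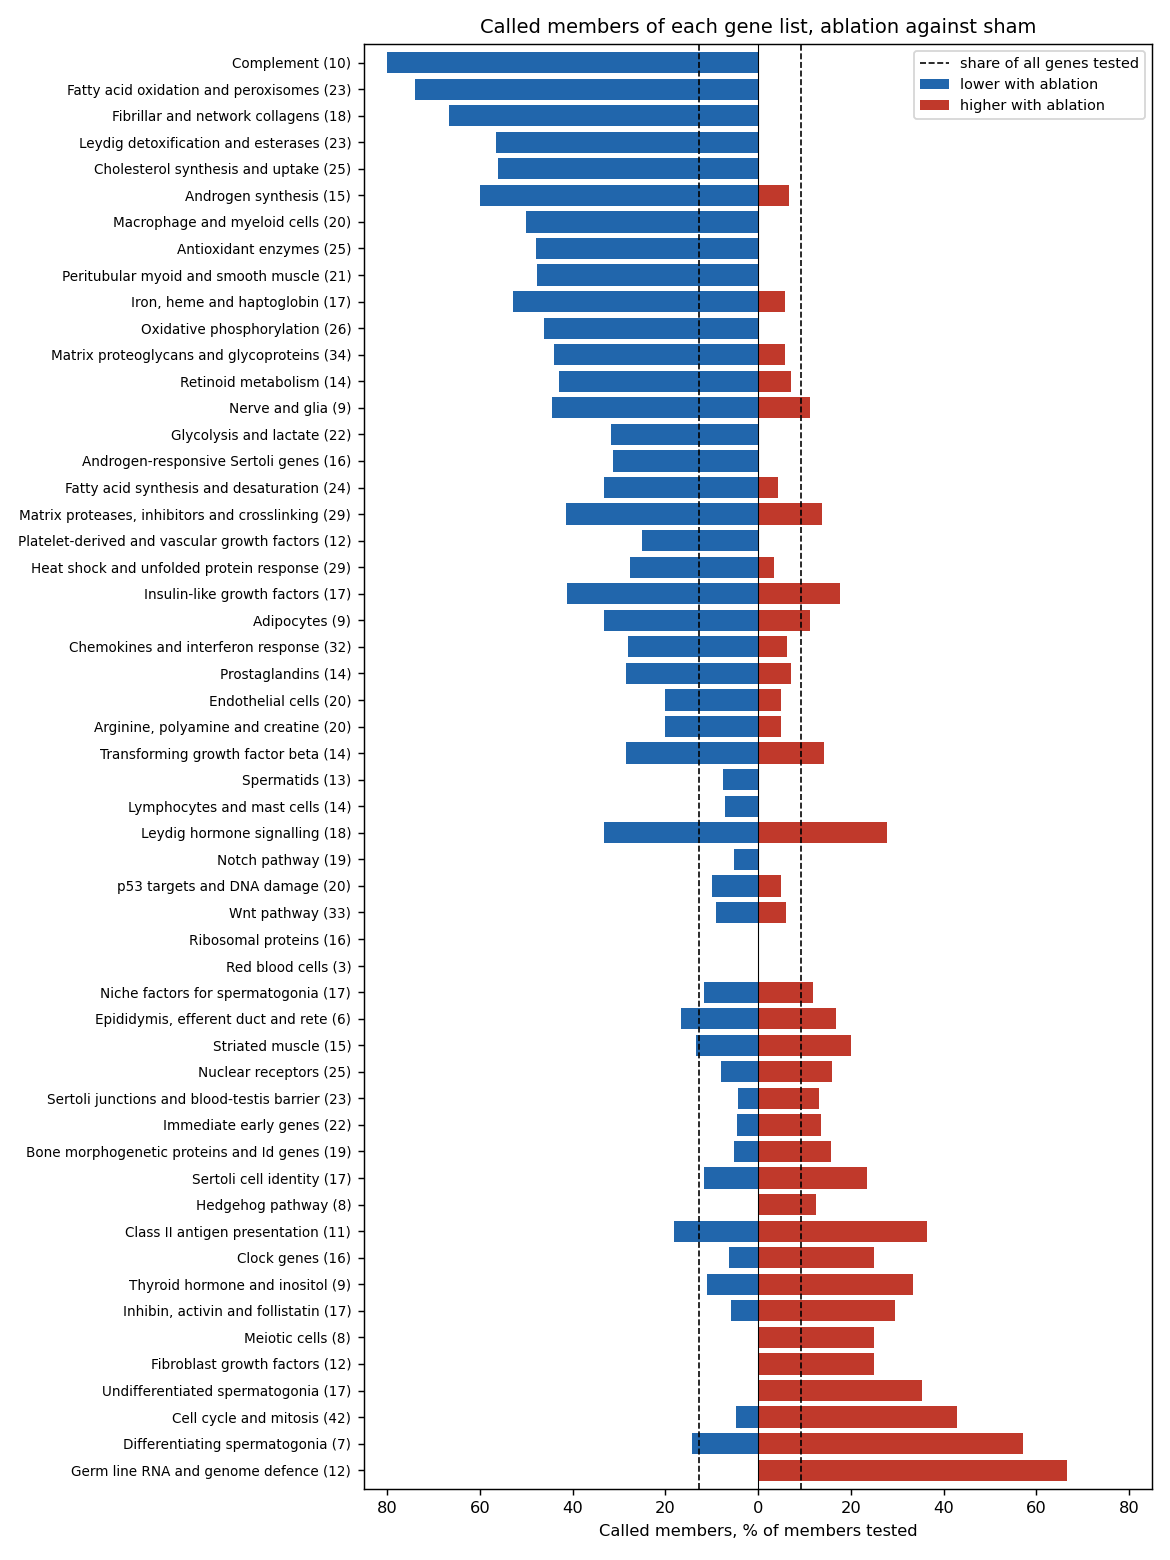
Share of tested members called lower (left) or higher (right) with ablation, in percent, for each of 54 gene lists, with the number tested in brackets and dashed lines at the shares of all genes tested (12.8% lower, 9.23% higher). Complement, fatty acid oxidation and collagens have the largest shares lower, and germ line RNA, differentiating spermatogonia and cell cycle the largest shares higher.

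The counts of some groups differed by which sham arrays were used. Of the 2511 called genes, 2510 had the same sign against the 10 sham arrays described as control and against the 4 described as irradiated. In fatty acid oxidation 18 members were lower against either set, and in androgen synthesis 9. Collagens called lower were 12 against the control-described and 8 against the irradiated-described arrays, and oxidative phosphorylation genes 4 and 12. Genes called higher were 883 and 360. Named genes that were called against all 14 sham arrays but not against the irradiated-described ones numbered 46. Of those described and not yet given, the adjusted p there was 0.0511 for Inha, 0.0765 for Gfra1, 0.0738 for Ocln, 0.0755 for Dnmt3a, 0.0754 for Ccnd1, 0.067 for Cd4, 0.0666 for Fgfr3, 0.0696 for Fzd2, 0.0544 for Slc5a3. It was 0.181 for Ccn1, 0.108 for Krt19, 0.17 for Mdm2, 0.22 for Nr4a3, 0.359 for Sfrp1 and 0.105 for Spry1. Against the control-described ones 9 were not called, among them Hsd3b1, Kit and Sycp3, given above, Crem (adjusted p = 0.0894) and Spry1 (0.0503). With the mean over all kept probe sets of a gene, Gfra1, Hk1, Kitlg, Lhcgr, Nr1d2, Nr4a3, Ocln and Smad3 were among 11 that lost the call, and Mdm2 turned to -0.23 (adjusted p = 0.349). Without the 6 arrays with spermatid transcripts, Ccn1, Cry1, Igfbp3, Kdr, Lpl and Nr4a3 were among 14 not called. The sets differ in size, and a difference between them within these lists was not tested.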

How the data were processed

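Total RNA of rat testes (10 ug per array) was hybridised to Affymetrix rat genome arrays. The values deposited by the authors are MAS5 signals, per the submitters' processing notes, and were read as log2 values. The log base, the MAS5 version and the scaling target are not given in the sources used here. If the base were another, log changes would be in that base and folds would differ. No further normalization and no pseudocount were applied. The number of arrays limits the precision.

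Of 31099 probe sets, 57 controls were left out, and 21269 that exceeded the 40th percentile of their array on at least 6 arrays were kept. A probe set could pass this filter through arrays of a single group. Gene symbols came from the platform annotation, with symbols updated from RefSeq by gene number for 20758 probe sets; 20826 had 1 symbol, 436 several and 9780 none. Each gene was read by that kept probe set whose mean over the arrays was highest. Levels were not compared between probe sets.

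Differences were fitted with limma 3.58.1 in R 4.3.3 on all 31 arrays in 3 groups, with a variance trend, 2-sided, and p-values were adjusted (Benjamini-Hochberg) across the kept probe sets. SE and p in the text come from this fit of 14 sham against 11 ablation arrays. Its code was tested on simulated data. Whether the arrays come from separate rats is said by the label biological replicate alone. No batch is recorded in the labels.

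The 54 gene lists (1383 entries, 919 different genes tested) and the members of the comparison were chosen with earlier results of these data known, so their directions are no independent support. Lists are described by counts and medians with no set test, and some genes stand in more than 1 list. Named genes are the 15 lowest and 15 highest by floored change among called genes without provisional symbols, up to 4 called members of each list by adjusted p, and 30 fixed genes; any other is said to be named after its values were seen. Of the fixed genes Fshr, Ptch1, Sox9 and Zbtb16 have no probe set named here, and Amh, Esr1, Gdnf and Rhox5 lay below the filter; 1 more is not reported here. The replicate numbers were not used to pair the groups, and the labels do not say whether they do. Alternatives were other filters, normalizations, variance models, sham subsets, a replicate block, the mean over a gene's probe sets, single arrays left out and, added after seeing the data, leaving out the arrays with spermatid transcripts.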

Additional observations from a re-analysis of the deposited data

How the results depend on the processing

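Probe sets called numbered 4128, and between 3111 and 5007 under all alternatives but that with the 4 irradiated-described sham arrays alone, which called 2345 probe sets, 853 of them higher, and 360 genes higher. With those 4 sham arrays, 359 probe sets had all ablation arrays above and 884 all below, and without the arrays with spermatid transcripts 141 and 459 (against 79 and 297), with fewer arrays in each. Leaving out 1 array gave 3724 to 4455 probe sets called, 1657 to 2106 higher and 1921 to 2465 lower, 867 to 1100 genes higher and 1315 to 1600 lower, and 79 to 98 probe sets all above and 297 to 356 all below. The comparison of sham arrays by description gave 0 to 1. Lower calls outnumbered higher ones except after quantile normalization (2652 higher, 2355 lower) and without ablation replicate 2 (1964 higher, 1940 lower). With the replicate number as a block 3185 probe sets were called (1483 higher, 1702 lower, 825 genes higher, 1148 lower). The pairing correlations of the 11 numbers were -0.0856 to 0.0467, so same-numbered arrays shared little deviation from their group means. Whether rats were matched by number is not given by the labels. Of 192 genes named by rule and called, 142 kept their call under every alternative, 50 lost it under some alternative other than leaving out 1 array, 46 of the named genes lost it with the irradiated-described sham arrays alone, and 7 lost it without some single array. The mean over all kept probe sets reversed Mdm2 (log2 change -0.23, adjusted p = 0.349; the cause was not tested). Signals near the filter level limit the sizes of changes in low genes.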
